A study of Mus musculus with 7 samples.

Results

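Basophils and mast cells were a small class in these lungs: 71 of 50955 kept cell barcodes, or 0.139%, met the rule for the class. The rule asked for at least 2 unique molecular identifiers (UMIs, each standing for 1 captured transcript) summed over Mcpt8, Cpa3 and Ms4a2, at least 1 over Gata2, Cd200r3, Cyp11a1 and Fcer1a, at most 1 over Cd3d, Cd3e and Cd3g and at most 1 of Cd79a. It was applied to barcodes with at least 600 UMIs, at least 300 genes and at most 20% of UMIs from mitochondrial genes. The cells it chose are called basophil-class cells here. Because measured levels chose them, their difference from other cells is given as a description, with no test.

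Lung cells came from 3 Smad4fl/fl and 4 Smad4iko mice, with 1 droplet library per mouse that counts the 3' ends of transcripts cell by cell (10x Genomics). By UMIs of Xist and the Y chromosome gene Ddx3y, Smad4fl/fl 3 and Smad4iko 3 were read as female and the other libraries as male. Smad4iko mice carried floxed Smad4 alleles and Rosa26-creERT2, a Cre recombinase active after tamoxifen and driven from a locus used in nearly all cell types, while Smad4fl/fl mice were littermates with the floxed alleles and no Cre. Mice of both genotypes had 5 intraperitoneal tamoxifen injections of 75 mg/kg between postnatal days 21 and 26, and the peripheral lung was taken at 8 weeks of age, digested with collagenase and cleared of red cells by lysis. The deletion was not limited to blood cells, so any level in the basophil class was measured in a lung where other cells could also lose SMAD4, the mediator of TGF-beta and BMP signals.

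Basophils are blood granulocytes that arm themselves with IgE through its high-affinity receptor, and mast cells are their long-lived relatives in tissue. Both depend on GATA2, store histamine and proteases in granules, and release cytokines of the type 2 response such as IL-4 and IL-13. In mouse, the protease Mcpt8 marks basophils, while the receptor tyrosine kinase Kit and the chymase and tryptase genes Cma1 and Tpsb2 mark connective tissue mast cells; basophils that live in the mouse lung have been described beside alveolar macrophages, under the influence of GM-CSF and IL-33.

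Promoters of genes of the rule are shown because GATA factors are known for their part in this lineage and Gata2 is itself 1 of the genes. A GATA motif, spelled AGATAA or TGATAA and searched on both strands in the 250 bases before each RefSeq gene start (build GRCm38.p6), was found for 4 of the 7 genes that the rule requires, Cpa3, Ms4a2, Cd200r3 and Fcer1a. The same letters were in 5452 of 32851 promoter windows of all genes, or 16.6%; counted by window, the rule genes had a match in 4 of 9. A window is given for each, 120 bases up to the gene start, with the motif in capitals (read as TTATCT or TTATCA where it lies on the other strand). They are Cpa3 (chr3:20242182-20242301, minus strand), Ms4a2 (chr19:11623720-11623839, minus strand), Cd200r3 (chr16:44943558-44943677, plus strand), Fcer1a (chr1:173227230-173227349, minus strand) and, as a gene of the rule without a match, Mcpt8 (chr14:56085198-56085317, minus strand).
Cpa3: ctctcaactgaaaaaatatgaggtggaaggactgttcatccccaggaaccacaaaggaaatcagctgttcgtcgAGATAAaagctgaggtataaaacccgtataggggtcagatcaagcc
Ms4a2: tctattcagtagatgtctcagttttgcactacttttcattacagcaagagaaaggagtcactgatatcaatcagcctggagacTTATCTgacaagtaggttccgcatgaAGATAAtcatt
Cd200r3: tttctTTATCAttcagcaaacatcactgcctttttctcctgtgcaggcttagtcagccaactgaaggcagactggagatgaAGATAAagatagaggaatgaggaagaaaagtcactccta
Fcer1a: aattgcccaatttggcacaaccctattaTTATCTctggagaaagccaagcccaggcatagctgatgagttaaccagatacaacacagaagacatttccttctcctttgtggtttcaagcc
Mcpt8: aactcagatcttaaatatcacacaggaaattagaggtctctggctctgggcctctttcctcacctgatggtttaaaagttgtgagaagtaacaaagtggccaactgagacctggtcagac
A match is a string of letters and not a measured binding site.

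Basophil-class cells numbered 5, 17 and 13 in Smad4fl/fl 1 to 3 and 7, 5, 9 and 15 in Smad4iko 1 to 4. The corresponding shares of kept barcodes were 0.0620%, 0.236% and 0.181%, and 0.107%, 0.0741%, 0.107% and 0.220%. The lowest and the highest share were both in Smad4fl/fl libraries, so the groups overlapped over the whole range. The exact 95% binomial interval (Clopper-Pearson) ran from 0.0201% to 0.145% in Smad4fl/fl 1 and from 0.138% to 0.378% in Smad4fl/fl 2, and these intervals cover counting error only. The mean share was 0.160% ± 0.0891 (SD, n = 3) in Smad4fl/fl and 0.127% ± 0.0640 (SD, n = 4) in Smad4iko, a difference smaller than the spread between mice (two-sided exact permutation test, p = 0.6; the smallest p that the 35 splits allow is 0.0286). Without Smad4fl/fl 2, the library with most of these cells, the difference changed sign, to 0.00589 percentage points.

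**Figure D1:**
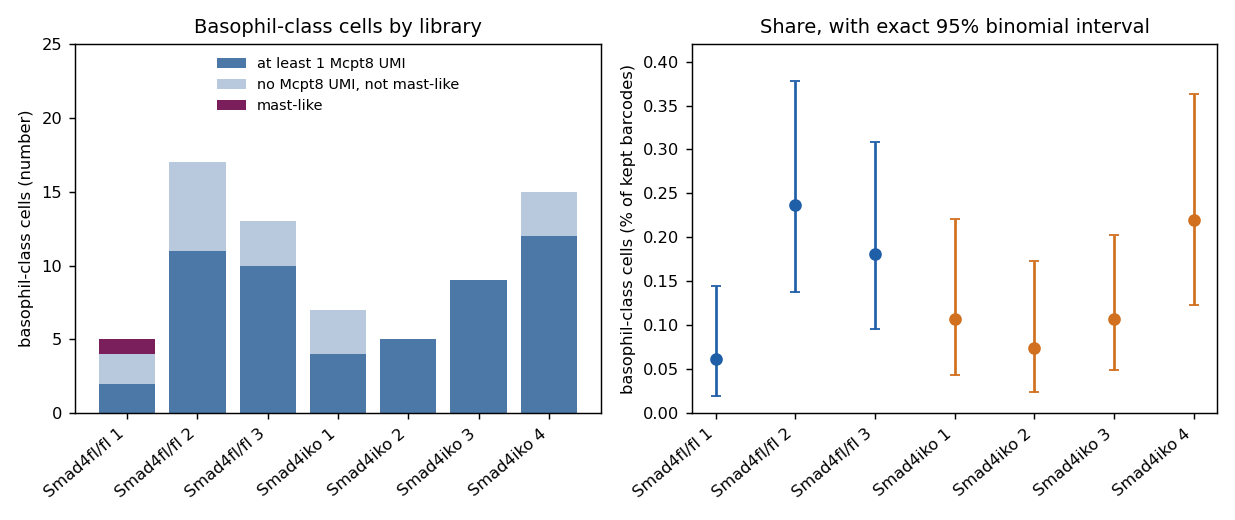
Left, number of basophil-class cells in each library, stacked by type: with at least 1 Mcpt8 UMI, with none and not mast-like, and mast-like. Right, their share of kept barcodes in percent, with exact 95% binomial intervals, blue for Smad4fl/fl and orange for Smad4iko; the shares of both genotypes span 0.0620% to 0.236%.

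The class held 281487 UMIs in all, between 15330 (Smad4iko 2) and 68223 (Smad4iko 4) per library, and the median cell had 3653 UMIs (644 to 19848). The kept barcodes of the whole series held 374873093 UMIs, with library totals from 46002949 to 65850168. No barcode sequence of a basophil-class cell occurred in a second library, although 411 sequences did so in the series. Smad4iko 3 and 4 stood above the other libraries in several activation genes of these cells, Cd69, Egr1 and Zfp36 among them, as described with those genes. In 7 cells, called mixed here, at least 20 UMIs came from the marker list of another cell type: neutrophil markers in 4 (all Smad4iko, with 68 to 2092 UMIs), and macrophage, erythroid and fibroblast markers in 1 cell each. A single mixed cell held 12645 of the 23208 class UMIs of Smad4fl/fl 1, 19848 of 39754 in Smad4iko 1 and 7553 of 15330 in Smad4iko 2. Levels scaled to the class total of these libraries are therefore lowered for genes that the mixed cell lacks. The doublet caller Scrublet marked 1 of the 71 cells.

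Most cells carried the identity genes of basophils. At least 1 UMI of Mcpt8 was found in 53 of 71 cells, and these are called basophil-like. Levels of Mcpt8 (56082166 to 56085273 on chromosome 14, minus strand), summed over the cells of a library and scaled to a common library total of 1000000 UMIs (CPM), were 215, 959 and 695 CPM in Smad4fl/fl 1 to 3 and 1660.2, 1826, 2708 and 1217 CPM in Smad4iko 1 to 4. All 4 Smad4iko libraries were above all 3 Smad4fl/fl libraries, and Smad4fl/fl 1 was the lowest. Without the mixed cells and the 1 mast-like cell described below, Mcpt8 levels ran from 618 to 3014 CPM over the libraries. A single cell held 42 of 66 Mcpt8 UMIs in Smad4iko 1, 15 of 28 in Smad4iko 2, 42 of 96 in Smad4iko 3 and 44 of 83 in Smad4iko 4, and 3 of 5, 13 of 43 and 10 of 38 in Smad4fl/fl 1 to 3. Without the cell richest in Mcpt8 in each library, a setting chosen after seeing the data, the levels were 102, 728 and 565 CPM in Smad4fl/fl 1 to 3 and 669, 996, 1727 and 620.3 CPM in Smad4iko 1 to 4, and the genotypes overlapped. Cpa3, carboxypeptidase A3 of basophil and mast cell granules, was detected in 59 cells, with 560.2, 959 and 896 CPM in Smad4fl/fl 1 to 3 and 503, 261, 762 and 366 CPM in Smad4iko 1 to 4. Ms4a2, the beta chain of the high-affinity IgE receptor, was detected in 61 cells at 277 to 733 CPM and Fcer1a, its alpha chain, in 51 cells at 130.5 to 669 CPM across the 7 libraries. Levels of these receptor chains overlapped between genotypes. Cells outside the class held averages of 0.118 CPM of Mcpt8 and 0.0668 CPM of Ms4a2, and the class held 89.1% of all Mcpt8 UMIs in the kept barcodes. These are genes of the rule, so the contrast restates how the cells were chosen.

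Cyp11a1, the mitochondrial enzyme that starts steroid synthesis from cholesterol, was detected in all 71 cells although the rule did not require it of each cell. Its levels were 1724, 2096 and 2049 CPM in Smad4fl/fl 1 to 3 and 1887, 2544, 1213 and 1114 CPM in Smad4iko 1 to 4, and the groups overlapped. Gata2, the transcription factor of the lineage, was detected in 59 cells at 388 to 2153 CPM, and Cd200r3, an activating receptor of the CD200 receptor family on mouse basophils and mast cells, in 56 cells at 261 to 733 CPM. Outside the class Gata2 averaged 30.5 CPM, and the class held 2.73% of its UMIs.

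The threshold of the rule fell in a sparse range of counts. Just inside it, 6 cells had exactly 2 UMIs of Mcpt8, Cpa3 and Ms4a2, and their Ccl4, a chemokine gene that the rule did not use, stood at 30606 CPM against 26737 CPM in all 71. Just outside, 8 barcodes with 1 such UMI and the second condition met had Ccl4 at 2761 CPM. Of these 8, 6 held a Ccl4 UMI and 5 each held 1 or more of Hdc, Il6 and Ifitm1, so the rule may have missed some cells of the class. The 7 barcodes with 2 or more such UMIs but none of the second gene group had Ccl4 at 229.9 CPM, and 2 of them held a Ccl4 UMI. A further 2 barcodes met both positive conditions and were left out for Cd3 or Cd79a UMIs.

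Only 1 cell was mast-like, defined as at least 2 UMIs over Kit, Mcpt4, Cma1, Tpsb2 and Tpsab1 and none of Mcpt8, and it came from Smad4fl/fl 1. Among its 2470 UMIs were 53 of Cma1, 23 of Tpsb2, 5 of Kit and 1 each of Mrgprb1 and Tph1. It also held 10 of Cpa3, 19 of Hdc and 3 of the basophil protease gene Prss34. Ccl4, Gzmb and Gzmc, which many of the other cells carried, had 0 UMIs in it. The other 70 cells together held no Kit and no Tpsb2 UMI and 3 UMIs of Cma1, all in 1 cell of Smad4iko 4. Mast cell genes Tpsab1, Mrgprb2, Mcpt1, Mcpt2, Mcpt9 and Mitf were not detected among the 281487 UMIs, which allows up to 10.7 CPM (3 counts). The remaining 17 cells had no Mcpt8 UMI and were not mast-like, and so the name mast-like rests on 1 cell while the class as a whole reads as basophil-like.

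Markers of other lineages were summed by list, over all cells and again without the mixed cells and the mast-like cell. Eosinophil genes Epx and Prg2, the platelet gene Pf4, the B cell gene Ms4a1 and the endothelial gene Cldn5 had no UMI in the class. Siglecf was found in 12 cells at 0 to 141 CPM, so the eosinophil list was represented by 1 of its 6 genes. The platelet list was likewise represented by 1 of its 6 genes, Itga2b, an integrin chain gene of platelets and their precursors, which was found in 26 cells at 65.2 to 183 CPM, above the other cells in all 7 libraries. Without the mixed and mast-like cells, epithelial markers reached at most 1672 CPM in any library, against a mean of 3270 CPM in other cells. Erythroid markers then reached 1313 CPM, against 2257 CPM. The 7 neutrophil markers summed to 86.2 to 178 CPM in Smad4fl/fl and to 176 to 136921 CPM in Smad4iko. Without the mixed and mast-like cells they summed to 0 to 900.1 CPM in any library. Scgb1a1, the club cell secretoglobin and no product of granulocytes, was detected in 33 cells; at a common depth of 1000 UMIs the expected share of cells with a UMI was 23.1%, against 13.3% in T cells of the same libraries.

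Of 15 genes on the basophil identity list, 14 were detected, all 14 averaged higher in the class than outside it, and 9 did so in all 7 libraries; Ptgdr2, the prostaglandin D2 receptor CRTH2, had no UMI. Ifitm1, an interferon-inducible membrane protein gene, was found in 68 cells with 3921, 10568 and 7499 CPM in Smad4fl/fl 1 to 3 and 5635, 5871, 9535 and 5570.0 CPM in Smad4iko 1 to 4. It averaged 362 CPM outside the class and 2457 CPM in neutrophils. Il3ra, the specific chain of the IL-3 receptor that supports basophil survival, was detected in 16 cells, at 0 to 113 CPM. Prss34, the basophil protease mMCP-11, was unlike the others. It was found in 6 cells only, and 115 of its 131 UMIs came from 1 cell of Smad4iko 4, a cell with 5354 UMIs and 44 of Mcpt8. Of the 6 cells, 5 also had Mcpt8, and the other was the mast-like cell, which held all 3 Prss34 UMIs of Smad4fl/fl 1. Levels by library were 129, 22.3 and 0 CPM in Smad4fl/fl 1 to 3 and 0, 0, 339 and 1686 CPM in Smad4iko 1 to 4.

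Histamine synthesis and granule genes came next in the description of the class. Hdc, histidine decarboxylase, was detected in all 71 cells, with 3749, 5172 and 4499.6 CPM in Smad4fl/fl 1 to 3 and 4201, 5219, 2934 and 2287 CPM in Smad4iko 1 to 4. Every library lay above the 160.4 CPM averaged outside the class and above the 1663 CPM of neutrophils, and the genotypes overlapped. Without the mixed and mast-like cells, Hdc levels ran from 2469 to 8744 CPM. Slc18a2, the vesicular transporter that loads histamine into granules, was detected in 48 cells with 1508, 803 and 677 CPM in Smad4fl/fl 1 to 3 and 377, 3588, 254 and 205 CPM in Smad4iko 1 to 4. Smad4iko 2 was far above the other libraries. Of its 55 Slc18a2 UMIs, 23 came from 1 cell of 644 UMIs and 15 each from cells of 1734 and 3124 UMIs. Srgn, the proteoglycan core of granules, reached 5171 to 14304 CPM in the class but 12178 CPM in neutrophils, so its level did not set the class apart from those. Cd63, the tetraspanin that reaches the surface when granules fuse, was at 776 to 1683 CPM and in 65 cells, against 108 CPM outside.

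Granzymes were carried by part of the class. Gzmb (ENSMUSG00000015437, 56258838 to 56262260 on chromosome 14, minus strand), the aspartate-cleaving granzyme of cytotoxic lymphocytes, was detected in 51 of 71 cells. Its levels were 2198, 4682 and 7463 CPM in Smad4fl/fl 1 to 3 and 6591, 3196, 479.6 and 264 CPM in Smad4iko 1 to 4. Smad4iko 3 and 4 were below every other library, while Smad4iko 1 and 2 lay within the Smad4fl/fl range. Gzmc (ENSMUSG00000079186, 56231441 to 56234656, same chromosome and strand), a neighbouring granzyme gene, was detected in 23 cells, and all 23 also had Gzmb. Its levels were 2369.9, 1382 and 2744 CPM in Smad4fl/fl 1 to 3 and 2641, 65.2, 28.2 and 29.3 CPM in Smad4iko 1 to 4. Smad4iko 1 was within the range of the Smad4fl/fl libraries and the other 3 Smad4iko libraries were far below. NK cells chosen by at least 2 UMIs of Ncr1 and Klrb1c (3991 cells) held on average 1464 CPM of Gzmb and 6.66 CPM of Gzmc. The defining NK genes Ncr1, Gzma, Klrb1c, Prf1 and Klra8 summed to at most 18.3 CPM in the class without its mixed and mast-like cells. By library, a Gzmb UMI was found in 4 of 5, 14 of 17 and 13 of 13 cells of Smad4fl/fl 1 to 3. In Smad4iko 1 to 4 it was found in 6 of 7, 4 of 5, 5 of 9 and 5 of 15 cells. The most Gzmb UMIs in 1 cell were 24, 38 and 65 in Smad4fl/fl 1 to 3 and 111, 18, 8 and 8 in Smad4iko 1 to 4. How reads were assigned between closely related granzyme genes is not given in the sources used here, so the split between Gzmb and Gzmc is uncertain.

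**Figure D2:**
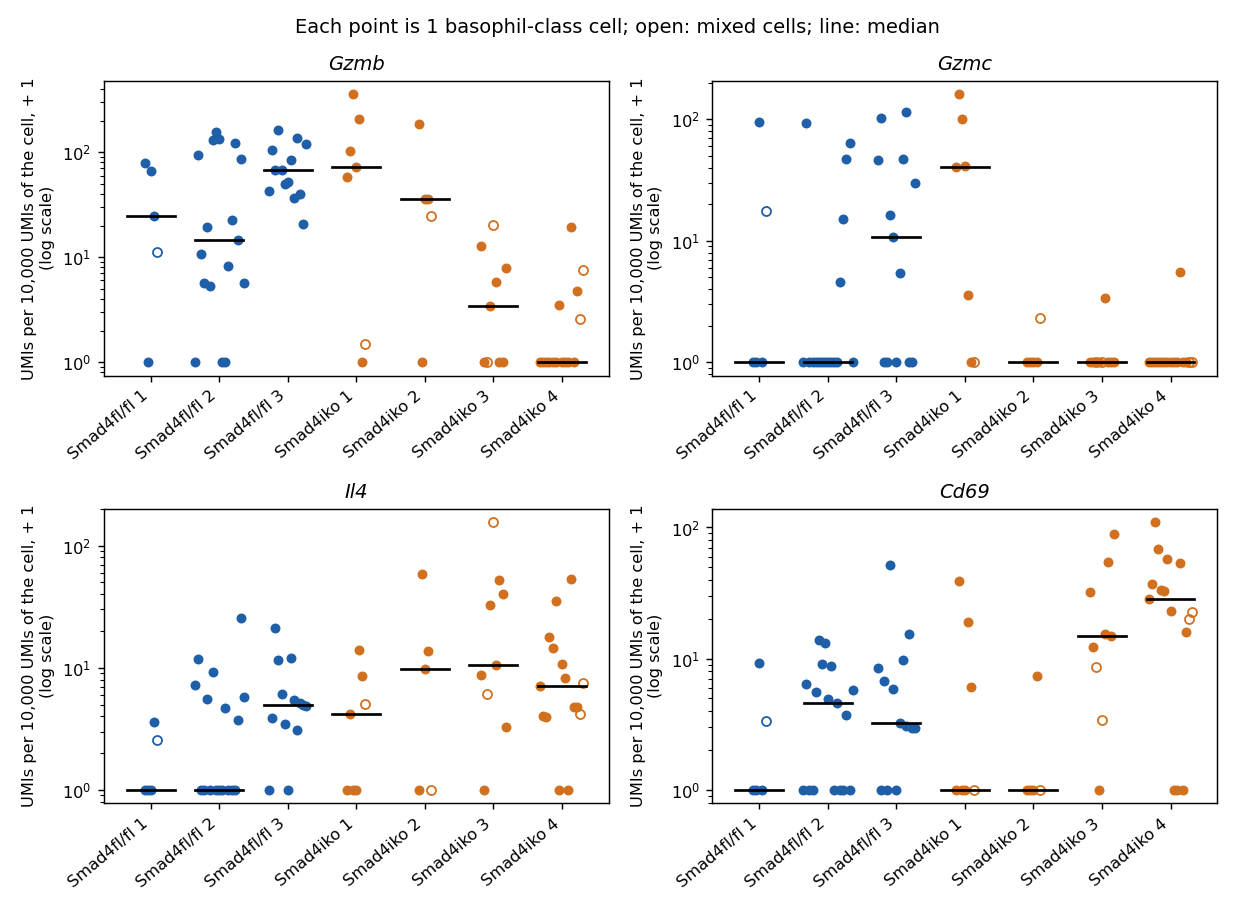
UMIs of Gzmb, Gzmc, Il4 and Cd69 per 10000 UMIs of a cell, plus 1 (log axis), for each of the 71 cells by library, blue for Smad4fl/fl and orange for Smad4iko. Lines are medians over cells and open points are mixed cells; Gzmb is low in Smad4iko 3 and 4, where Cd69 is high, and Gzmc is low in Smad4iko 2, 3 and 4.

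The type 2 cytokine genes were a second effector group. Il4 was detected in 49 cells with 129, 424 and 530.4 CPM in Smad4fl/fl 1 to 3 and 428, 1044, 3526 and 1026 CPM in Smad4iko 1 to 4. Smad4iko 3 was the highest library and Smad4fl/fl 1 the lowest, and the groups overlapped only where Smad4iko 1 lay between 2 Smad4fl/fl libraries. In Smad4iko 3, 1 mixed cell with erythroid markers held 64 of the 125 Il4 UMIs. Il13 was detected in 34 cells, 26 of which also had Il4, and its levels were 215, 268 and 878 CPM in Smad4fl/fl 1 to 3 and 50.3, 261, 789.9 and 689 CPM in Smad4iko 1 to 4. Smad4iko 1 was the lowest and Smad4fl/fl 3 the highest, so the groups overlapped, and its mean over libraries was 450.1 CPM, beside 109 CPM in type 2 innate lymphoid cells (ILC2) chosen by a rule that used Il13 itself. The class held 50.3% of all Il4 UMIs and 26.9% of all Il13 UMIs of the series while holding 0.0751% of all UMIs. At a common depth of 1000 UMIs, Il4 was expected in 40.3% of 69 cells (69.0% of 71 without thinning) and in 0.169% of T cells. Il5, Il9 and Il10 had no UMI in the class, which again allows up to 10.7 CPM.

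Other secreted factors were spread over more of the cells. Il6 was detected in 69 of 71 cells, with 1120.3, 1717 and 2780.3 CPM in Smad4fl/fl 1 to 3 and 2038, 2153, 4457 and 4163 CPM in Smad4iko 1 to 4. The highest values were in Smad4iko 3 and 4, and all libraries were above the 68.4 CPM that was the highest level outside the class. Il1b was detected in 64 cells at 6112 to 18620.5 CPM, close to the 10450.5 CPM of neutrophils, which are a known source of this cytokine. Osm, oncostatin M of the IL-6 family, was found in 60 cells at 172 to 1608 CPM, Hgf, the hepatocyte growth factor, in 54 cells at 453 to 803 CPM, and Csf1, the growth factor of macrophages, in 42 cells at 141 to 896 CPM. Outside the class these 3 genes averaged 69.1, 9.04 and 13.3 CPM. In neutrophils they averaged 320, 8.05 and 65.8 CPM, so the Osm level of Smad4fl/fl 1, 172 CPM, was below that of neutrophils. Areg, amphiregulin, was confined to 12 of the 71 cells and was at 0 in Smad4iko 2 and 4, and Tnf was found in 12 cells, 9 of them in Smad4iko 3 and 4.

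Chemokine genes of the CC family were detected in nearly every cell. Ccl4, which attracts leukocytes, was found in 70 cells, all but the mast-like one, with 3792, 24256 and 26229.6 CPM in Smad4fl/fl 1 to 3 and 15596, 16373, 41273 and 37846 CPM in Smad4iko 1 to 4. Smad4iko 3 and 4 were highest, Smad4fl/fl 1 was lowest and the groups overlapped with all cells counted. In Smad4fl/fl 1 the mixed cell of 12645 UMIs held 5 Ccl4 UMIs. Without the mixed and mast-like cells, Ccl4 levels ran from 10256 to 42346 CPM over the libraries. Ccl3, a ligand of CCR1, was found in 68 cells with 1163, 10345 and 11469 CPM in Smad4fl/fl 1 to 3 and 4654, 4827, 17265 and 18762 CPM in Smad4iko 1 to 4, in nearly the same order of libraries. Ccl9, a mouse ligand of CCR1, was found in 70 cells with 3792, 7602 and 10755 CPM in Smad4fl/fl 1 to 3 and 4528, 4827, 2652 and 3386 CPM in Smad4iko 1 to 4, and here Smad4fl/fl 2 and 3 were the highest. Ccl6, another mouse CCR1 ligand, was in 68 cells at 1566 to 6951 CPM, above its 1189.5 CPM outside. Neutrophils averaged 1579 CPM of Ccl6, slightly above the lowest library, Smad4iko 2. Cxcl2, which attracts neutrophils, was found in 42 cells at 2111 to 12187 CPM, against 12848 CPM in neutrophils themselves. Ccl2, Ccl7, Ccl12 and Cxcl3 had no UMI, so 8 of 12 chemokine genes were detected, and 4 of them were above other cells in all 7 libraries. Ccl4 was expected in 97.5% of cells at 1000 UMIs and in 2.10% of T cells.

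**Figure D3:**
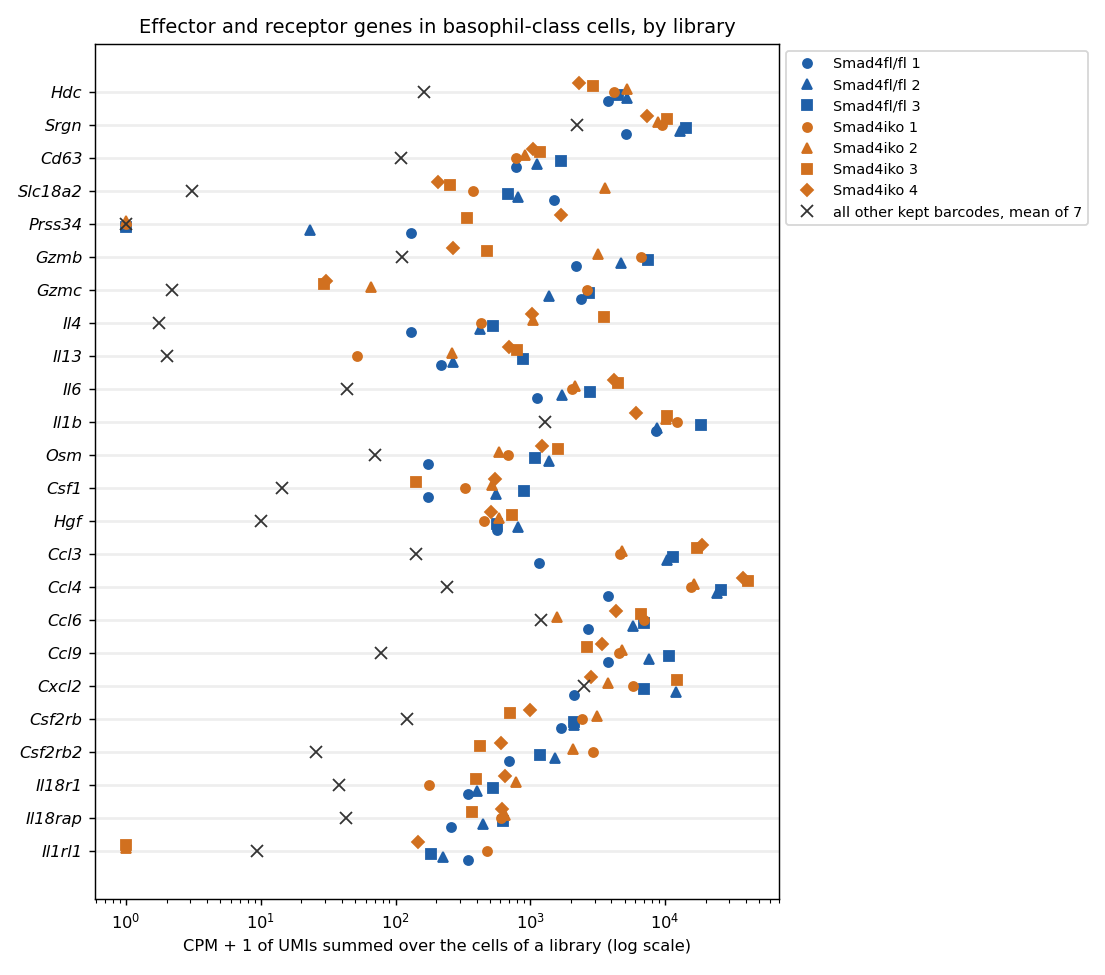
CPM plus 1 (log axis) of 24 effector and receptor genes in basophil-class cells, 1 point per library (blue, Smad4fl/fl; orange, Smad4iko); crosses are the mean of 7 libraries over all other kept barcodes. Gzmc ran from 28.2 to 2641 CPM within Smad4iko, while Hdc lay between 2287 and 5219 CPM in all libraries.

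Receptors for the cytokines that support basophils were also present. Csf2rb, the beta chain common to the IL-3, IL-5 and GM-CSF receptors, was detected in 66 cells with 1680.5, 2096 and 2122 CPM in Smad4fl/fl 1 to 3 and 2415, 3131, 705 and 997 CPM in Smad4iko 1 to 4. Csf2rb2, the mouse beta chain specific for IL-3, was found in 63 cells with 689, 1516 and 1171 CPM in Smad4fl/fl 1 to 3 and 2893, 2087, 423 and 601 CPM in Smad4iko 1 to 4. In both genes Smad4iko 1 and 2 were above every Smad4fl/fl library and Smad4iko 3 and 4 were below every one, so the Smad4iko mice lay on both sides. The IL-18 receptor genes Il18r1 and Il18rap were found in 52 and 53 cells at 176 to 783 CPM and 259 to 652 CPM. Il1rl1, the IL-33 receptor ST2, was found in 28 cells and was at 0 in Smad4iko 2 and 3; its mean of 196 CPM was below the 518 CPM of ILC2, whose rule used this gene. All 12 genes on the list of IgE receptor signalling were detected, Plcg1 and Grap2 with 1 UMI each, and 6 averaged higher than in other cells. Only 1 of the 12, Fcer1g, the gamma chain of the receptor, was above other cells in all 7 libraries (64 cells, 431 to 2059 CPM). Neutrophils averaged 2106 CPM of Fcer1g, so its level did not set the class apart from those. Csf2rb and Csf2rb2 are close copies of each other, and the split of reads between them is as uncertain as that between the granzymes.

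Among lipid mediator genes, Alox5ap, which presents arachidonate to 5-lipoxygenase, was detected in 66 cells at 560.2 to 2059 CPM, and Ptgs2, the inducible cyclooxygenase, in 37 cells at 176 to 2741 CPM. Alox15, the 12/15-lipoxygenase, was sparse, in 22 cells, yet the class held 31.2% of its UMIs in the series. The prostaglandin D2 synthase gene Hpgds and Ptgs1 were not detected. Among transcription factors of the lineage, Cebpb was found in 70 cells at 2404 to 5641 CPM, Runx1 in 48 cells at 326 to 604 CPM and Cebpa in 29 cells at 130.5 to 282 CPM, while Gata1 had 1 UMI in all.

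Outside the lists, the genes with the highest ratio of mean CPM in the class to that in other cells, among genes with at least 100 CPM, began with Defb40, a beta-defensin. It was detected in 18 cells, with 86.2, 134 and 146 CPM against 126, 326, 479.6 and 439.7 CPM in Smad4fl/fl 1 to 3 and Smad4iko 1 to 4, and the class held 69.5% of its UMIs. Grm6, a metabotropic glutamate receptor gene known from the retina, followed with 20 cells at 43.1 to 457 CPM, and then Gzmc, the acid nuclease gene Dnase2b (23 cells) and Gm9895, an unnamed gene model (24 cells). Csrp3, a muscle LIM protein gene, the glycerol and water channel gene Aqp9, the transcription factor gene Klf5, the adenosine receptor gene Adora2b, the sialic acid lyase gene Npl and Cdh1, which encodes E-cadherin, completed the 12 together with the gene model 4932438H23Rik. Of these, Cdh1 was detected in 52 cells at 252 to 689 CPM, against 14.2 CPM outside, and Aqp9 in 53 cells at 205 to 913 CPM, against 37.7 CPM in neutrophils.

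**Figure D4:**
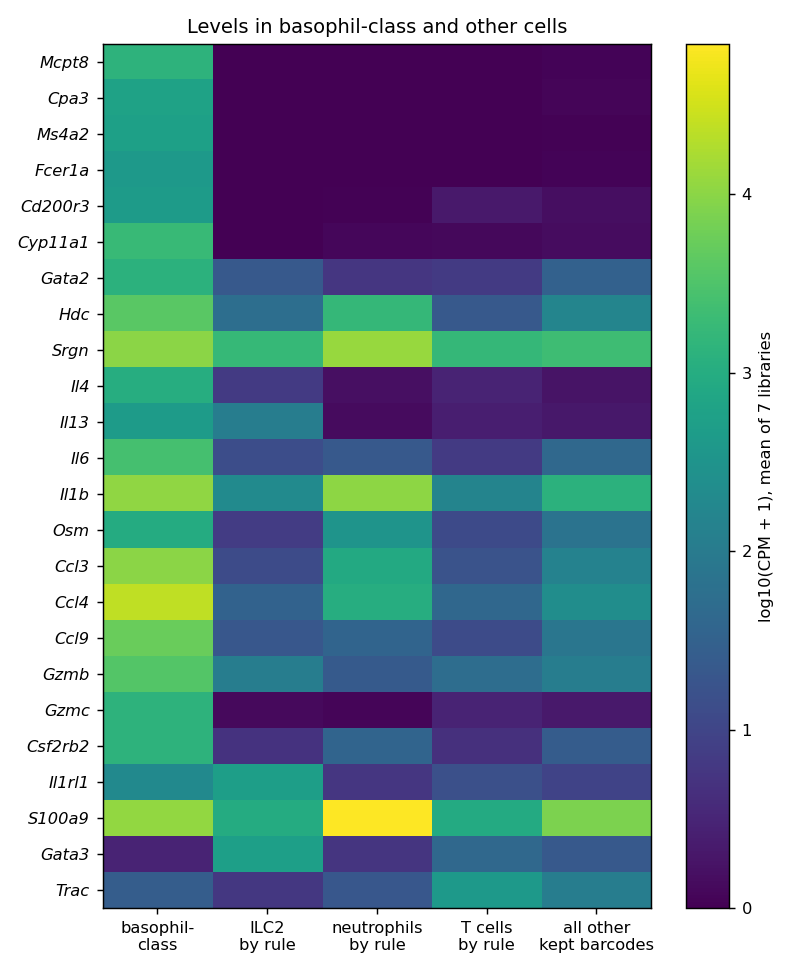
Mean CPM over 7 libraries, as log10(CPM + 1), of 24 genes in basophil-class cells and in ILC2, neutrophils, T cells and all other kept barcodes; the 3 named classes were also set by rules on UMIs. Mcpt8, Cpa3 and Ms4a2 are at 0 in the 3 named classes because the rules of those classes asked for no UMI of them. Il4 is bright only in the first column, while Il1b and Srgn are as bright in neutrophils.

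Smad4, the targeted gene, was near the limit of detection in so few cells. Smad4fl/fl 1 to 3 gave 4, 4 and 1 UMIs and Smad4iko 1 to 4 gave 0, 0, 0 and 6, which corresponds to 172, 89.2 and 18.3 CPM in Smad4fl/fl 1 to 3 and 0, 0, 0 and 87.9 CPM in Smad4iko 1 to 4. Thus 3 of 4 Smad4iko libraries had none, where 3 counts would correspond to 75.5, 196 and 84.6 CPM, and Smad4iko 4 had a level like that of Smad4fl/fl 2. The mean was 93.3 ± 77.1 CPM (SD, n = 3) in Smad4fl/fl and 22.0 ± 44.0 CPM (SD, n = 4) in Smad4iko (two-sided exact permutation test, p = 0.171), so loss of the transcript was not detectable at this depth. UMIs at the 3' end need not cover the floxed part, whose position the labels do not give. In all other kept barcodes Smad4 stood at 78.5, 86.8 and 86.7 CPM in Smad4fl/fl 1 to 3 and 61.3, 54.4, 41.9 and 55.8 CPM in Smad4iko 1 to 4, without overlap.

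The genotypes were then compared over all genes with enough UMIs in the class, with UMIs summed per mouse. Of 603 genes tested with edgeR's quasi-likelihood test and Benjamini-Hochberg adjustment, 0 passed the threshold of 0.05 (0%), 35 (5.8%) had an unadjusted p under 0.05, 24 higher (3.98%) and 11 lower (1.82%) in Smad4iko, and DESeq2's Wald test also called 0. The groups did not overlap in 30 genes (4.98%), 14 higher (2.32%) and 16 lower (2.65%). A low number of cells leaves this comparison with little depth, from 15330 UMIs per library, and fewer cells of a kind within the class and fewer transcripts per cell cannot be told apart in such sums.

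Among genes of the class itself, Il4 had a log2 difference (Smad4iko minus Smad4fl/fl) of 2.08 ± 0.70 (SE; edgeR's quasi-likelihood test, adjusted p = 0.798), which did not pass the threshold. Without Smad4iko 3 and 4 the estimate was 1.00, and without the mixed cells it was 1.94. The log2 difference of Mcpt8, a gene of the rule and given with no test, was 1.63, from the levels listed above, and it was 1.53 without Smad4iko 3 and 4. For Il6 it was 0.85 ± 0.39, for Ccl4 0.74 ± 0.63, for Ccl9 -0.83 ± 0.38 and for Hdc -0.22 ± 0.36, and none of these passed. Gzmb had -0.75 ± 0.90 with an adjusted p of 0.938 in edgeR's test, and its sign turned, to 0.13, without Smad4iko 3 and 4. Gzmc had -1.56 ± 1.20 with an adjusted p of 0.938; without Smad4iko 1 its difference was -5.84 ± 0.60 with an adjusted p of 0.00242 in the same edgeR test, so that 1 library decided this call. By lists, 8 cytokine genes were tested, of which 4 were higher, 4 lower and 0 passed, with a median of -0.03, and 5 chemokine genes, of which 3 were higher, 2 lower and 0 passed, with a median of 0.00499; over all 603 genes the median was -0.000927.

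Genes with the smallest unadjusted p and no overlap between genotypes were named by rule, as not called. Higher in Smad4iko were S100a9, Lyz2, S100a8, Cd52, Nsa2, Sem1 and Pglyrp1, leaving aside Mcpt8, a gene of the rule for the cells. S100a9, a calcium-binding protein of neutrophils, had 0, 44.6 and 18.3 CPM against 50.3, 72994, 1467 and 4075 CPM in Smad4fl/fl 1 to 3 and Smad4iko 1 to 4. Its highest level was in Smad4iko 2, where a mixed cell held 2092 UMIs of neutrophil markers, and neutrophils numbered 341, 648 and 1091 in Smad4fl/fl 1 to 3 and 1063, 2203, 1583 and 885 in Smad4iko 1 to 4; their part in the result was not tested. Cd52, a small surface glycoprotein of leukocytes, had 345, 624 and 366 CPM against 1333, 4436, 1157 and 777 CPM, again highest in Smad4iko 2, and its log2 difference of 2.17 ± 0.66 was 1.32 without that library. Lyz2, the lysozyme of myeloid cells, had 0, 0 and 128 CPM against 3169, 2218, 141 and 293 CPM, and Smad4iko 1 held a mixed cell with 205 UMIs of macrophage markers. Without the mixed cells, S100a9, S100a8 and Lyz2 fell below the filter on low counts and gave no estimate.

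Among those lower in Smad4iko by the same rule, and also not called, were Arl4c, Mapkapk3, Cst3, Tmcc3, Jak2, Snx20 and Prkd3. Arl4c, a small GTPase, had 345, 357 and 695 CPM against 201, 65.2, 113 and 117 CPM in the 3 Smad4fl/fl and the 4 Smad4iko libraries, a log2 difference of -1.77 ± 0.50 (edgeR, adjusted p = 0.572). Mapkapk3, a kinase downstream of p38, had 431, 535 and 494 CPM against 277, 130.5, 226 and 176 CPM, a difference of -1.17 ± 0.41. Cst3, the protease inhibitor cystatin C, had a log2 difference of -1.34 ± 0.52, but -0.16 without the mixed cells, -0.17 under the stricter rule for the class and -0.56 without Smad4fl/fl 1. Prkd3, a protein kinase D gene, had a log2 difference of -0.84 ± 0.40, but -0.47 without the mixed cells and -0.12 without cells with at least 3 marker UMIs of a second type. Tmcc3 had -1.30 ± 0.53, but -0.56 without mixed and mast-like cells; Jak2, a cytokine receptor kinase gene, had -0.94 ± 0.39, but -0.56 without cells with at least 3 marker UMIs of a second type; and Snx20 had -1.31 ± 0.54, but -0.66 without Smad4iko 3 and 4.

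Levels of some activation genes were highest in Smad4iko 3 and 4, and those of others were not. Cd69, an early activation receptor, was detected in 46 cells with 259, 379 and 749.9 CPM in Smad4fl/fl 1 to 3 and 528, 130.5, 2539 and 2946 CPM in Smad4iko 1 to 4. Egr1, a transcription factor induced within minutes of stimulation, had 1939, 892 and 128 CPM against 201, 261, 2426 and 4910.4 CPM, and Zfp36, which destabilises cytokine transcripts, had 302, 981 and 165 CPM against 402, 391, 2369.7 and 2785 CPM. In these 3 genes Smad4iko 3 and 4 were the highest libraries, and Smad4iko 1 and 2 lay within the Smad4fl/fl range or below it. Fos, Fosb and Jun, genes of the AP-1 transcription factor, did not share this order. Fos had 3275, 379 and 311 CPM against 528, 130.5, 818 and 1202 CPM in Smad4fl/fl 1 to 3 and Smad4iko 1 to 4, highest in Smad4fl/fl 1. In that library 1 mixed cell with fibroblast markers held 12645 of 23208 UMIs, and its part in the AP-1 levels was not tested. Fosb had 1379, 1828 and 749.9 CPM against 654, 130.5, 508 and 3137 CPM, with Smad4iko 3 below all 3 Smad4fl/fl libraries, and Jun had 1853, 557 and 36.6 CPM against 629, 0, 1636 and 3547 CPM, with Smad4iko 3 below Smad4fl/fl 1. Of 14 tested genes of the activation list, 11 were higher and 3 lower in Smad4iko and 0 passed edgeR's test, with a median log2 difference of 0.33. The difference for Cd69 was 1.79 ± 0.82 (edgeR, adjusted p = 0.844) and turned to -0.30 without Smad4iko 3 and 4. Levels of Il6, Ccl3 and Ccl4 were higher in Smad4iko 3 and 4 than in Smad4iko 1 and 2, and those of Gzmb were lower; the part of activation in these differences was not tested.

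Genes of TGF-beta and BMP signalling were too sparse to compare. Of 24 such genes 19 were detected, and 1 was tested, Skil, a repressor induced by TGF-beta. Skil had 345, 178 and 348 CPM in Smad4fl/fl 1 to 3 and 553, 652, 254 and 147 CPM in Smad4iko 1 to 4, with overlapping groups and a log2 difference of 0.46 ± 0.62 (edgeR, adjusted p = 0.938). Tgfbr2, the type II receptor for TGF-beta, was found in 18 cells at 0 to 302 CPM, and Smad7, a target and inhibitor of the pathway, in 11 cells at 0 to 517 CPM.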

How the data were processed

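The authors deposited raw UMI counts of genes by barcodes, 1 sparse matrix for each mouse, made with Cell Ranger 6.1.1 per the file headers. Named in the submitters' processing notes, with no version, are fastp, UMI-tools and the build mm10, and the annotation used is not given in the sources used here. The labels give 7 separate mouse samples, and the main fit did not pair them by replicate number. Gene coordinates come from GENCODE M21 and promoters from RefSeq on GRCm38.p6.

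Barcodes were filtered and the class chosen as the report states, and 0 barcodes were removed as doublets in the main values (Scrublet in scanpy 1.11.5, expected rate 6%, served as an alternative). UMI counts were summed per mouse over the class and tested with edgeR 4.0.16 (R 4.3.3; filterByExpr, TMM, quasi-likelihood test, genotype as the only term), with DESeq2 1.42.0 as the other tool, after the fit was tested on simulated data. Smad4 fell below filterByExpr, so its planned fit was replaced by an exact permutation test on CPM. T cells (at least 2 Cd3 UMIs, at most 1 of Cd79a), neutrophils and ILC2 were chosen by similar rules and had no UMI of Mcpt8, Cpa3 or Ms4a2. Shares at a common depth are the share of cells expected to hold a UMI after 1000 UMIs are drawn from each, which left out 2 cells of the class and 21 T cells. Genes outside the lists were named by the ratio rule (top 12, at least 100 CPM) and, in the genotype fit, as up to 8 genes in each direction by unadjusted p, if the groups did not overlap and the mean log2 CPM reached 7; 1 such gene is not reported here. The cells, gene lists and tests were chosen with earlier results of these data known. Alternatives left out single libraries, doublets and cells with markers of a second type, and changed the filters, the normalization, the covariates and the depth.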

Additional observations from a re-analysis of the deposited data

Results flagged for a closer look

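Of 58 genes with levels in the report, 9 had 1 Smad4iko library whose gap to its nearest neighbour was too large a part of the range of the 4 libraries by Dixon's test at the 95% level, which chance alone passes in about 1 in 20 groups. High libraries were Smad4iko 1 for Gzmc (2641 CPM), Smad4iko 2 for Slc18a2 (3588 CPM), Cd52 (4436 CPM), S100a8 (50685 CPM) and S100a9 (72994 CPM), Smad4iko 3 for Ifitm1 (9535 CPM) and Smad4iko 4 for Smad4 (87.9 CPM, against 0 in the other 3). Low libraries were Smad4iko 3 for Il18rap (367 CPM) and for Cst3 (282 CPM). The S100a8 and S100a9 values of Smad4iko 2 came with 1 cell of 7553 UMIs that held 2092 UMIs of neutrophil markers. Its Slc18a2 value came with 23 UMIs in a cell of 644 UMIs and 15 each in cells of 1734 and 3124 UMIs. The Gzmc value of Smad4iko 1 rested on 5 of its 7 cells, with 50 of 105 UMIs in 1 of them.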

How the results depend on the processing

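The difference in share kept its sign and its side of the threshold in every alternative run except without Smad4fl/fl 2, where it turned to 0.00589 percentage points; leaving out single libraries moved it between -0.0813 and 0.00589. The count of genes called between genotypes was 0 in 17 alternatives, among them DESeq2 (0, with 59 of 9757 genes at an unadjusted p under 0.05), the sex covariate and equal depth, and 0 to 1 when single libraries were left out. It was 64 with no filter on low counts (25 higher, 39 lower), and of these, 59 had as many or more of their UMIs in mixed or mast-like cells as in all others. Single genes were called in further settings, 1 each. They were Lyz2 with a covariate for Smad4iko 3 and 4 (adjusted p = 0.0319, edgeR), Gzmc without Smad4iko 1 (0.00242) and S100a9 with the replicate block (0.0154). Without cells with at least 3 marker UMIs of a second type, which left Smad4iko 3 with 0 cells, the only gene under the threshold was Mcpt8. Because Mcpt8 helped to choose the cells, it is not read as a result. Pairing by replicate number was checked first. Deviations of same-numbered libraries correlated at 0.0883, -0.0810 and -0.152, and those of differently numbered Smad4fl/fl and Smad4iko libraries between -0.231 and 0.224. With so few cells per library these values cannot decide whether the numbers mark pairs, and the block called 1 gene.

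The Smad4 difference of -71.3 CPM ranged from -109 to -31.7 CPM when single libraries were left out and reversed, to 17.5 CPM, without cells with markers of a second type; its alternatives in the main fit (size factors, block, covariates) gave no value because of its filter, while the fit without a filter gave -1.22 ± 1.08 (edgeR, adjusted p = 0.696) and DESeq2 -1.44 ± 1.78 (adjusted p = 0.997). The log2 difference of Gzmb turned to 0.17 with the covariate and 0.13 without Smad4iko 3 and 4, and that of Cd69 to -0.26 and -0.30; the cause was not tested. The number of mast-like cells was 1 at each cutoff. With 5 to 17 cells per mouse, counting error alone limits every level, and Il4 was found in 69.0% of cells before and expected in 40.3% after thinning to 1000 UMIs.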

Other observations

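Genes outside the effector groups were also read in the class. Pim1 and Cish, which STAT5 induces downstream of IL-3 and GM-CSF receptors, were detected in 69 and 62 of the 71 cells at 1744 to 3567 CPM and 391 to 1044 CPM, against averages of 620.1 and 51.2 CPM outside the class. Mcl1, which protects granulocytes from apoptosis, was found in 62 cells at 259 to 1700.3 CPM, in every library below the mean of 2541 CPM in neutrophils. Among inhibitory receptors, Lilrb4a was found in 51 cells at 196 to 602 CPM and Cd200r1 in 14 cells at 25.2 to 87.9 CPM. Proliferation genes were rare, with 3 UMIs of Mki67 and 4 of Top2a in the class, and 4 of 10 cell cycle genes had none. Among trafficking receptors, Cxcr4, which holds leukocytes in marrow and tissue, was found in 52 cells at 215 to 1044 CPM, while Ccr3, the eotaxin receptor, had 7 UMIs in 7 cells. Of 10 interferon-induced genes 9 were detected, and Isg15 was found in 17 cells at 215, 579.7 and 1244 CPM against 0, 1174, 226 and 103 CPM in Smad4fl/fl 1 to 3 and Smad4iko 1 to 4, with wide overlap.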
